A study of Mus musculus with 15 samples.

Results

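Livers of wildtype mice were compared between E17.5, an embryonic day shortly before birth, and 2 weeks after birth. The comparison takes in 8 of the 15 libraries of the series, 4 at each stage, chosen by the genotype and the age that the labels give. Every animal had the mixed C57BL/6N;129SvJ background, and the wildtype groups carried no engineered allele or treatment. The other 7 libraries came from livers without a working Stab1 gene, written Stab1-/-, with 4 at 2 weeks and 3 at E17.5, and were used here only as a second reading of the same stage difference. Total RNA of dissected liver was sequenced, so each library held the RNA of every cell type of the organ together. The labels name no sex, litter or batch, so the stage cannot be told apart from a batch that went with it. The labels number the replicates but do not say whether a library held the RNA of 1 animal or of several.

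Before birth the mouse liver is the main site of blood formation, and nests of dividing red cell precursors lie between immature hepatocytes that secrete alpha-fetoprotein. Around birth blood formation moves to bone marrow and spleen, and the hepatocytes take over the making of glucose between meals, the disposal of ammonia as urea, the making of bile acids and the breakdown of foreign compounds. Cytochrome P450 enzymes start that breakdown by oxidation, conjugating enzymes such as glucuronosyl- and sulfotransferases make the products soluble, and plasma proteins such as albumin leave the cell through the endoplasmic reticulum. At 2 weeks the pups still live on milk, a diet rich in fat and poor in starch.

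Each wildtype library held 9.92 to 10.96 M uniquely mapped reads on genes (M for mega). The log2 values of libraries of the same stage correlated with Pearson's r of 0.974 to 0.983 at 2 weeks and 0.981 to 0.988 at E17.5, and those of different stages with 0.708 to 0.743. The tissue label was borne out by the defining liver transcripts, since albumin alone stood at 40320 to 67860 RPKM, reads per kilobase of gene scaled to the total of the library, in the 8 libraries. Stab1 itself measured 7.3 to 21.8 RPKM in the wildtype livers and 0.862 to 5.23 RPKM in the Stab1-/- livers.

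The stages also differed in the sex-chromosome transcripts that they held. The Y-linked genes Ddx3y and Eif2s3y had no read in any wildtype library of 2 weeks, and Ddx3y had 599, 1038, 362 and 1398 reads in the E17.5 libraries (replicates 1 to 4, the order used for all values). Xist, the RNA that coats the inactive X chromosome of females, had 13753, 10343, 11119 and 8554 reads at 2 weeks, against 14182, 12870, 14362 and 119 at E17.5. So the 2-week libraries held Xist without Y-linked reads beyond 18 per library, E17.5 replicates 1 to 3 held both kinds, and E17.5 replicate 4 held Y-linked reads with little Xist. Replicates 1 to 3 of E17.5 may therefore each hold RNA of more than 1 animal, which was not tested, and each library was treated as 1 replicate in every test. The 2-week Stab1-/- libraries had the make-up of the 2-week wildtype ones, with 13 to 23 Y-linked reads each. The E17.5 Stab1-/- libraries had 1434, 1270 and 31 Y-linked reads and 4094, 6231 and 22419 Xist reads. A stage difference in a gene whose level differs between the sexes therefore cannot be told apart from the sex of the animals.

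Some E17.5 libraries also held transcripts of genes that mark pancreas and skeletal muscle, and their source was not tested. Transcripts of 13 pancreas genes, mostly digestive enzymes, summed to 93.0, 3010, 277.9 and 14.5 RPKM at E17.5 and to 10.1 to 12.4 RPKM at 2 weeks. Replicate 2 stood apart, with 0.289% of its reads on these genes. Transcripts of 13 skeletal muscle genes reached 129.8 RPKM in E17.5 replicate 1, and were at 11.7 to 15.6 RPKM in the other E17.5 libraries and at 0.721 to 1.37 RPKM at 2 weeks. The pancreatic elastase gene Cela2a was called lower at 2 weeks (log2 fold change -6.34 ± 1.61, adjusted p = 0.00358, or -3.49 without replicate 2, adjusted p = 0.00967). Muscle actin, Acta1, was called lower (-6.93 ± 1.86, adjusted p = 0.00516, or -4.01 without replicate 1, adjusted p = 9.03e-05).

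**Figure D1:**
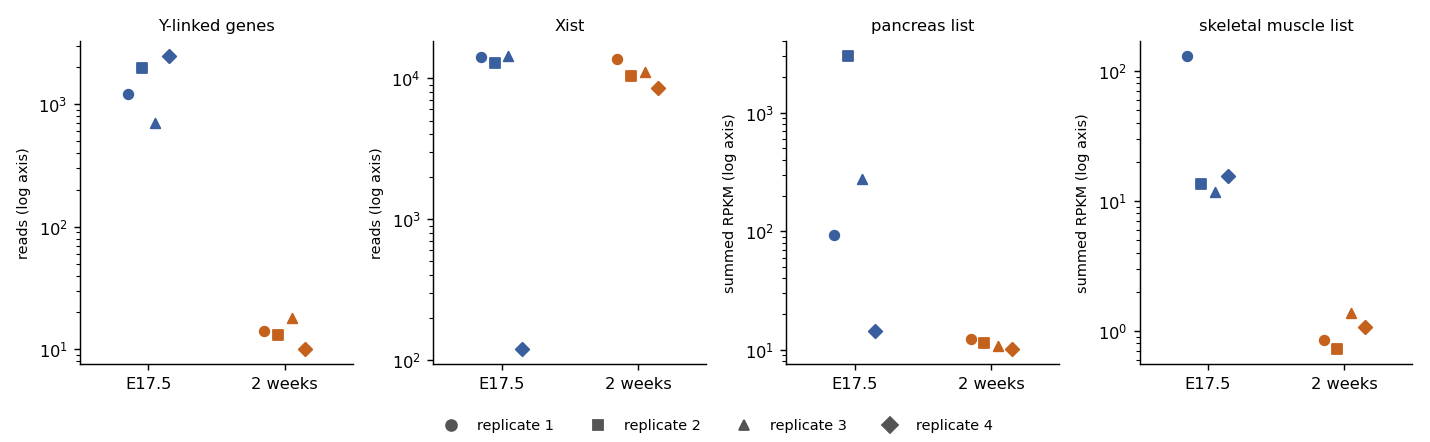
Sex-chromosome reads and other-tissue transcripts in each wildtype library, with reads or summed RPKM on log axes, stage on the horizontal axis and 1 symbol per replicate. The Y-linked panel adds 6 genes, and the reads left in the 2-week libraries (10 to 18) lay almost wholly on Uba1y. E17.5 replicate 4 had 119 Xist reads, replicate 2 had 3010 RPKM of pancreas transcripts and replicate 1 had 129.8 RPKM of muscle transcripts.

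Most of the measured transcriptome differed between the stages. Of 13369 genes with enough reads for a test, 4667 (34.9%) were higher and 4948 (37.0%) lower at 2 weeks (71.9% in either direction) at an adjusted p under 0.05 in edgeR's quasi-likelihood test. A fold of at least 4 was passed by 809 of the higher genes (6.05% of those tested) and by 1163 of the lower genes (8.70%). With limma on log2(RPKM + 0.1) and log2(RPKM + 1) the first of these counts was 534 and 355. These shares are the background against which each gene group below is to be read, and the median log2 fold change over the tested genes was -0.01. Genes given only with a fold change, as the exceptions of a list, were named after their values were seen. Fold changes are given as log2 of 2 weeks over E17.5 with the standard error, after scaling of the counts by the trimmed mean of M-values (TMM). RPKM values are not scaled in that way and lie 0.36 lower on the log2 scale at 2 weeks relative to the fold changes, and with library totals in place of TMM factors 3104 genes were called higher and 6834 lower. The share of calls that were higher was thus 48.5% with TMM and 31.2% with library totals.

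The 2-week libraries put more of their reads on fewer genes. The 10 genes with most reads took 24.4% to 28.7% of the reads at 2 weeks and 21.2% to 22.9% at E17.5. The number of genes that together made up 50% of the reads was 186 ± 41.5 (SD, n = 4) at 2 weeks against 423 ± 37.6 at E17.5 (exact permutation test, two-sided, p = 0.0286, the smallest that 4 against 4 allows). Fewer genes had a read at all, 15791 ± 68.9 against 16726 ± 156 (SD, n = 4, exact permutation p = 0.0286). The highest transcripts of both stages were nonetheless largely the same secreted proteins. Albumin led at both, and Ahsg (fetuin-A), Trf (transferrin, the iron carrier of plasma), Apoa1, Apoa2 and H19 were among the 10 highest at both. Afp, with a mean of 18460 RPKM, and the beta-globin Hbb-bs, with 13300 RPKM, stood among the 10 highest at E17.5 and were not among them at 2 weeks.

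**Figure D2:**
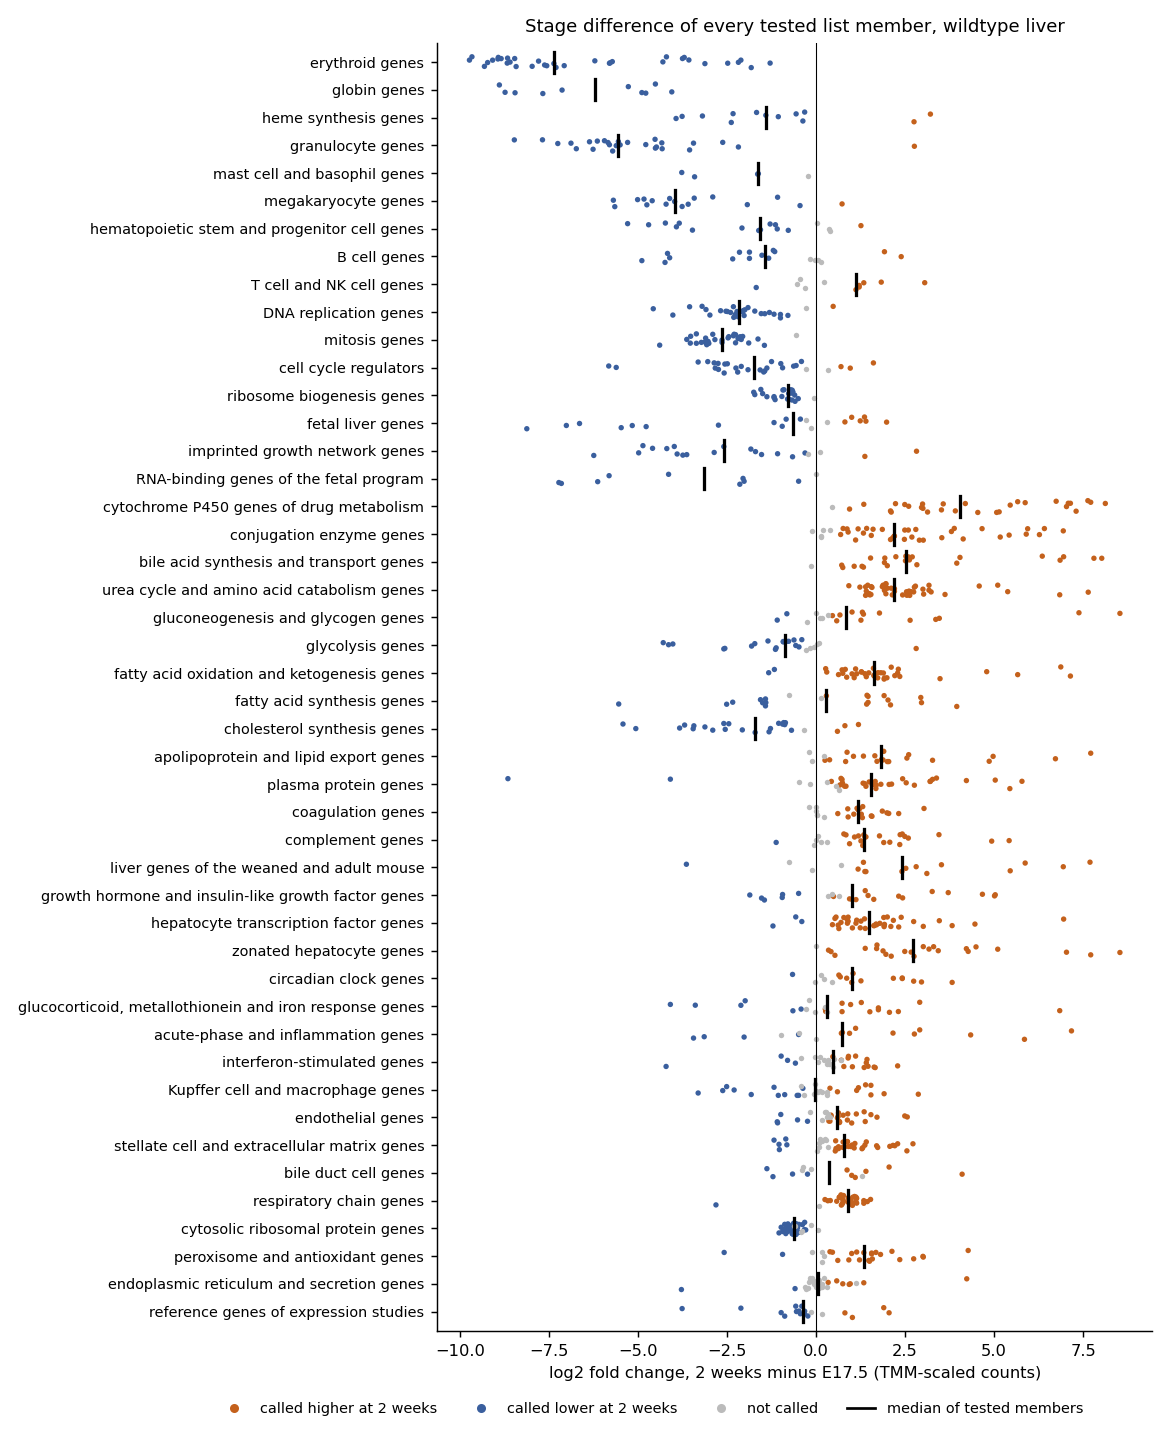
Log2 fold change (2 weeks minus E17.5, horizontal axis) of every tested member of 46 gene lists in wildtype liver, with called members in orange (higher) or blue (lower), other members in grey and the median as a black bar. Erythroid, globin and granulocyte members lie far to the left and cytochrome P450 members to the right. For 4 globin genes without reads at 2 weeks the plotted value depends on the fit, and the list's median was -6.20 as fitted and -4.48 with these genes at their lower bounds.

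Transcripts of blood-forming cells were lower in large number. Of 152 tested genes in 9 hematopoietic lists (176 members in the table), 127 were lower at 2 weeks (37.0% of all tested genes were), 101 of them at least 4-fold (8.70% of all), and 13 were higher, with a median log2 fold change of -3.80. Together these genes took 4.58% to 5.05% of the reads of the E17.5 libraries and 1.02% to 1.18% at 2 weeks. Most of the 2-week share lay on the plasma protein genes Hpx and Hp, members of these lists that rose. Hpx had 47560 to 55678 reads and Hp 30275 to 42631 reads in each 2-week library. The share therefore understates the fall of the other members. In RNA of whole liver, fewer cells of a type and less RNA per cell cannot be told apart.

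The 35 tested of 36 erythroid genes were lower without exception, 33 of them at least 4-fold, with a median of -7.36 and a share of reads that went from 1.97% to 2.43% at E17.5 down to 0.0680% to 0.0944%. Kel, the Kell blood group protease, went from 138, 163, 142 and 198 RPKM to 0.227, 0.0399, 0.112 and 0.186 RPKM, the largest fall of the list (log2 fold change -9.73 ± 0.25, adjusted p = 4.69e-11). Epor, the erythropoietin receptor, fell from 47.9 to 56.0 RPKM to 1.71 to 2.66 RPKM (-4.20 ± 0.14). Smaller falls were measured for members that hepatocytes and other cells also use, such as the transferrin receptor Tfrc (-2.11), the ferrochelatase gene Fech (-2.18) and the mitochondrial glycine carrier Slc25a38 (-1.29).

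The 10 tested globin genes were lower, each at least 4-fold. Adult beta-globin Hbb-b1 measured 5825, 5825, 5001 and 4654 RPKM at E17.5 and 110, 139, 141 and 43 RPKM at 2 weeks (-5.27 ± 0.33, adjusted p = 2.52e-08), and alpha-globin Hba-a1 went from 3484 to 4671 RPKM to 76.6 to 168 RPKM (-4.78 ± 0.24). Reads of the adult globins remained at 2 weeks. How reads of near-identical globin copies were counted is not known, so their values may share reads. The embryonic beta-like gene Hbb-bh1 had 6.89 to 14 RPKM at E17.5 and no read at 2 weeks, which makes it at least 21.9-fold lower with 3 reads per library as the floor.

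Heme, the pigment of hemoglobin and of the cytochrome P450 enzymes, is made by both cell types, and its genes split. Of 13 tested genes 11 were lower and 2 higher. Alas2, the first enzyme of the pathway in red cells, fell from 622, 569, 569 and 680 RPKM to 34.4, 44.6, 43.1 and 24.4 RPKM (-3.70 ± 0.18, adjusted p = 3.11e-09), whereas Alas1, its counterpart in other tissues, rose by 2.75 on the log2 scale. Uros, a later enzyme of the pathway, fell by 2.38 ± 0.13 and the mitochondrial transporter Abcb10 by 3.93 ± 0.11. Alad was just past the threshold (-0.37 ± 0.15, adjusted p = 0.0453) and lost the call in several other settings. The second riser was hemopexin, Hpx, a plasma protein that binds free heme (3.21 ± 0.13).

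White cell precursors followed the red cells. In the granulocyte list 26 of 27 genes were lower, every one at least 4-fold, with a median of -5.55, and the exception was Hp, haptoglobin, which hepatocytes secrete (2.76 ± 0.19, from 350 to 576 RPKM to 2119 to 2928 RPKM). The granule proteins myeloperoxidase and neutrophil elastase showed the pattern clearly. Mpo measured 103, 76.4, 107 and 105 RPKM at E17.5 and 0.260, 0.746, 0.440 and 0.547 RPKM at 2 weeks (-7.25 ± 0.23), and Elane went from 60.5 to 82.1 RPKM to 0.519 to 0.917 RPKM (-6.36 ± 0.20). Stfa1, a stefin protease inhibitor of neutrophils, dropped by the most in the list, from 1081, 842, 481 and 884 RPKM to 3.88, 1.93, 0.901 and 0.449 RPKM (-8.47 ± 0.40, adjusted p = 2.27e-09). Camp, the cathelicidin peptide of late granules, fell by 5.71 ± 0.34 and ranged from 1.88 to 10.1 RPKM among the 2-week libraries.

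Of 17 megakaryocyte genes 16 were lower and 1 was higher, with a median of -3.97. Platelet factor 4, Pf4, went from 81.0 to 102 RPKM to 1.98 to 5.59 RPKM (-3.97 ± 0.21), and the integrin Itga2b from 16.5 to 21.4 RPKM to 1.75 to 2.19 RPKM (-2.90 ± 0.13). Selp, P-selectin, was the exception at 0.73 ± 0.23, and endothelial cells make it too. It was not called with library totals (0.37, adjusted p = 0.162). Of 5 tested mast cell and basophil genes 4 were lower, among them the carboxypeptidase Cpa3 (-3.77 ± 0.52). The basophil protease Mcpt8 had 1.11 to 2.59 RPKM at E17.5 and no read at 2 weeks but too few reads for the test.

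Stem and progenitor genes were lower in 13 of 17 cases. The progenitor transcription factor Myb fell from 11.9 to 14 RPKM to 0.379 to 0.748 RPKM (-4.23 ± 0.16) and Gfi1 by 5.29 ± 0.40, while Cd34, which blood vessels share, fell by only 1.09 ± 0.13. Hlf rose by 1.26 ± 0.16, and it also belongs to the clock-controlled factors of the hepatocyte.

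Lymphocyte genes did not move as a block. Within the B cell list 12 of 18 tested genes were lower, and these included the markers of precursors: the surrogate light chain Vpreb1 went from 14.3, 11.4, 11.5 and 10.8 RPKM to 0.495, 0.784, 0.488 and 0.364 RPKM (-4.11 ± 0.25), and the recombinase gene Rag2 from 1.12 to 1.30 RPKM to at most 0.0555 RPKM (-4.89 ± 0.37). The general B cell marker Cd79a fell less, by 1.20 ± 0.24. Cd74, the invariant chain of MHC class II that other antigen-presenting cells carry too, rose from 4.68 to 7.39 RPKM to 22.4 to 29.7 RPKM (2.39 ± 0.16), as did Ms4a1, CD20 of mature B cells (1.92). In the T and NK cell list 6 of 11 tested genes rose and 1 fell. Ccl5, a chemokine of cytotoxic cells, went from 0.788 to 1.29 RPKM to 5.78 to 7.77 RPKM (3.05 ± 0.25), and Nkg7 from 4.49 to 5.26 RPKM to 0.940 to 1.5 RPKM (-1.68 ± 0.22). Cd3e, part of the T cell receptor complex, was at 0.393 to 0.522 RPKM at 2 weeks and had reads in only 1 E17.5 library (0.0651 RPKM), below the filter.

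**Figure D3:**
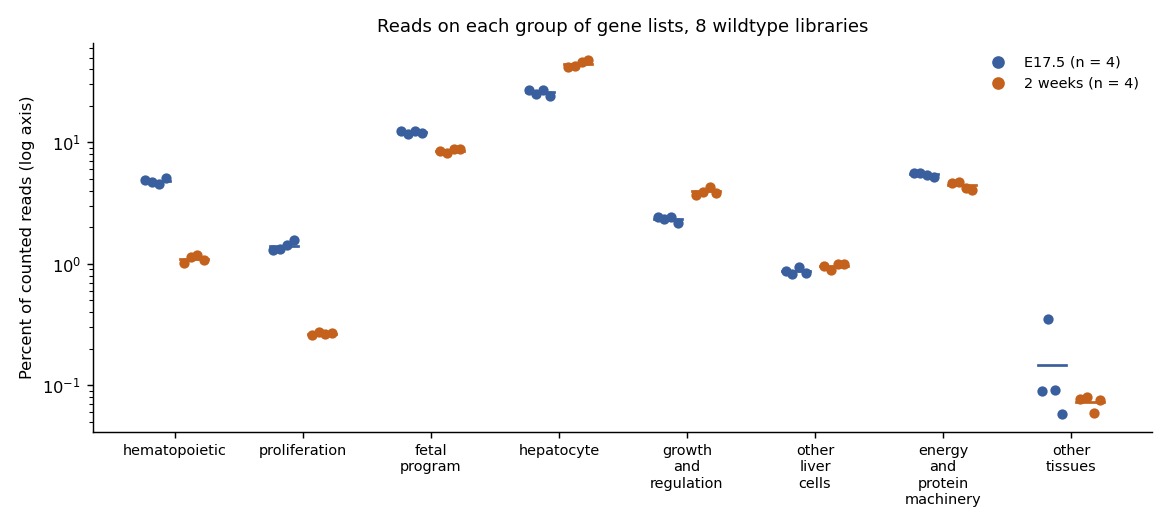
Percent of counted reads (log axis) on the genes of 8 groups of lists in each wildtype library, with E17.5 in blue, 2 weeks in orange and the mean of 4 libraries as a line. The hematopoietic and proliferation groups lie lower and the hepatocyte group higher at 2 weeks in every library, and the single high point for other tissues is E17.5 replicate 2 at 0.353%.

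The cell division program fell alongside. Over 118 tested genes of 4 proliferation lists 109 were lower, 63 at least 4-fold, and 4 higher, with a median of -2.07. They took 1.31% to 1.57% of the reads at E17.5 and 0.259% to 0.275% at 2 weeks. Which dividing cells lost these transcripts was not tested, since red cell precursors and hepatocytes share them.

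Among DNA replication genes 30 of 32 were lower (median -2.16). Mcm2, a subunit of the replicative helicase, measured 43, 44.6, 56.1 and 56.7 RPKM at E17.5 and 4.27, 5.37, 4.46 and 5.60 RPKM at 2 weeks (-2.98 ± 0.14). Rrm2, which makes deoxynucleotides, fell by 3.55 ± 0.20, the origin-recognition gene Orc1 by 4.57 ± 0.28 and the sliding clamp Pcna by 2.02 ± 0.11, and Pcna still stood at 45.4 to 58.5 RPKM. Tk1 was not called (-0.29).

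In the mitosis list 31 of 32 genes were lower, 28 at least 4-fold, and Pttg1 was not called. Mki67, the Ki-67 protein of dividing cells, went from 154, 150, 166 and 212 RPKM to 4.83, 4.99, 7.61 and 7.66 RPKM (-4.39 ± 0.21, adjusted p = 3.2e-09). The mitotic kinase gene Cdk1 went from 38.5 to 45.1 RPKM to 6.13 to 8.33 RPKM (-2.19 ± 0.13), its cyclin Ccnb1 from 66.9 to 81.4 RPKM to 5.12 to 7.81 RPKM (-3.07 ± 0.16), and Plk1 fell by 2.64 ± 0.20. Each of these still had reads in every 2-week library.

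Of the cell cycle regulators 25 of 30 were lower and 3 higher. Cdc25b, the phosphatase that activates mitotic kinases, fell the most, from 138 to 172 RPKM to 1.75 to 2.30 RPKM (-5.82 ± 0.14), and E2f1 fell by 2.25 ± 0.14. Cyclin D1, Ccnd1, rose from 16.6 to 20.8 RPKM to 69.7, 38.1, 28.9 and 37.1 RPKM (1.61 ± 0.21), with replicate 1 well above the others. Rbl2 (0.70) and Gadd45g (0.96) were the other risers, and the inhibitor Cdkn1a was not called (0.33 ± 0.17, adjusted p = 0.107). Genes for making ribosomes were lower in 23 of 24 cases but by less, with a median of -0.79, for example nucleolin, Ncl (-0.93 ± 0.10), and Nop56 (-1.75 ± 0.17).

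The start regions of these genes differ in the letters they hold, and 5 are shown as examples of red cell, granulocyte and mitotic genes that fell. Each run is the 250 bases before the start site, 5′ to 3′ on the strand of the gene, from RefSeq on GRCm38.p6. Capitals mark matches on either strand. In Alas2 and Kel they mark the GATA factor motif, whose letters are AGATAA. In Stfa1 they mark the C/EBP motif, with the letters TTGCNNAA. In Cdk1 and Mki67 they mark the cell cycle homology region, spelled TTTGAA, and the CCAAT box.
Alas2 (chrX:150547167-150547416, plus strand): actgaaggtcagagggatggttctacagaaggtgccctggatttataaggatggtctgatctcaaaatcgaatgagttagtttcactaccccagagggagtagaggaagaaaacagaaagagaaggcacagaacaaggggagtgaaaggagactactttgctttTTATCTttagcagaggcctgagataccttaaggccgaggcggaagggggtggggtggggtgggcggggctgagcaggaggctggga
Kel (chr6:41704326-41704575, minus strand): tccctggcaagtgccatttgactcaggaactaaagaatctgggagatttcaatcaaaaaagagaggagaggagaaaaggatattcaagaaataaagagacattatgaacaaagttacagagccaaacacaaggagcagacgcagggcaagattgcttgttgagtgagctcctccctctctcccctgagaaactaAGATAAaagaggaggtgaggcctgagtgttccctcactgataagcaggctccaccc
Stfa1 (chr16:36276898-36277147, plus strand): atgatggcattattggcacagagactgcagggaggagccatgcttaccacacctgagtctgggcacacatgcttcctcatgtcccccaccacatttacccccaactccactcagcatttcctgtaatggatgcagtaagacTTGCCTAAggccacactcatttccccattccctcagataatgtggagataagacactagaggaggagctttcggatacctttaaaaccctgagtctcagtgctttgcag
Cdk1 (chr10:69352913-69353162, minus strand): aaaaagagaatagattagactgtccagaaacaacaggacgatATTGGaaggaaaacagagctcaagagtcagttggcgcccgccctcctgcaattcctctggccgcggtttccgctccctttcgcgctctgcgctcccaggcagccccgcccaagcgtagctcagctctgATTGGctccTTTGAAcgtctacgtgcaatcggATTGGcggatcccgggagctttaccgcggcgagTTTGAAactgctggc
Mki67 (chr7:135716380-135716629, minus strand): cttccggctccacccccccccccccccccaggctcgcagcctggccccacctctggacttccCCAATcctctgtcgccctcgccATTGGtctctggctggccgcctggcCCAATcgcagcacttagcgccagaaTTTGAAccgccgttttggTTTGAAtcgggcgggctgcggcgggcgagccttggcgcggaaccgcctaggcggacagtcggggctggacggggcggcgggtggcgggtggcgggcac

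In all 9 motifs were searched. Over all promoters in the RefSeq table, taken from 250 bases before to 50 after the start, AGATAA was found in 11.2% of 32851 promoters, and in 36.7% of 30 promoters of 24 erythroid genes. The KLF1 site, another red cell motif with the letters CCACACCC, was in 3.56% of all promoters and in 0 of these 30. TTTGAA was found in 17.9% of all promoters and in 72.4% of 29 promoters of 27 mitosis genes, and CCAAT in 37.4% and 75.9%. CCAAT was not particular to mitosis genes, and among the lists searched it ranged from 29.2% (coagulation genes) to 80% (cholesterol synthesis genes). For granulocyte genes TTGCNNAA was present in 41.7% of 24 promoters, against 10.8% of all. Lists that rose held it too, with 33.3% of cytochrome P450, 32.4% of plasma protein and 29.2% of coagulation promoters, and no mitosis promoter held it. Among the genes that were called at least 4-fold lower the shares were 10.9% for AGATAA and 17.6% for TTTGAA, among those at least 4-fold higher they were nearly the same at 11.5% and 16.4%, and among all tested genes they were 6.98% and 12.3%. Promoters were found for 10656 of the 13369 tested genes, none of the motifs contains another, and a match says only that these letters are present.

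The fetal hepatocyte program closed down unevenly. Of 51 tested genes in 3 lists 37 were lower and 8 higher. Afp, alpha-fetoprotein, measured 18340, 18350, 17620 and 19520 RPKM at E17.5 and 134, 141, 137 and 35.8 RPKM at 2 weeks (-7.01 ± 0.41, adjusted p = 1.39e-08), with replicate 4 well below the other 2-week livers. Dlk1, a membrane protein of hepatoblasts, went from 131 to 186 RPKM to 0.347 to 0.541 RPKM (-8.12 ± 0.19). By contrast the imprinted pair H19 and Igf2 remained high. H19, a noncoding RNA, was at 5563, 5736, 5482 and 5133 RPKM at E17.5 and 4650, 3943, 3247 and 2418 RPKM at 2 weeks, without overlap but short of the threshold after scaling (-0.27 ± 0.16, adjusted p = 0.159), and with library totals it was called lower (-0.62, adjusted p = 0.00515). Igf2, the fetal growth factor, fell from 1030 to 1203 RPKM to 323 to 514 RPKM (-0.95 ± 0.14). Cyp3a16, listed as a fetal P450, rose from 65.2 to 92.0 RPKM to 207 to 320 RPKM (1.98 ± 0.16), and its reads may be shared with other Cyp3a copies.

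In the imprinted growth network 17 of 21 tested genes were lower and 2 higher, with a median of -2.59. The growth inhibitor Cdkn1c went from 175 to 226 RPKM to 18.9 to 23.9 RPKM (-2.86 ± 0.12), the noncoding RNA Meg3 from 66.4 to 99.0 RPKM to 2.20 to 3.19 RPKM (-4.59 ± 0.16), and Plagl1 from 24.1 to 25.7 RPKM to 2.65 to 4.09 RPKM (-2.59 ± 0.12). Phlda2 had a read in only 1 library of 2 weeks (0.254 RPKM) and 6.75 to 9.07 RPKM at E17.5, a ratio of 118 by library totals (exact 95% counting interval 32.2 to 977). Slc22a18, a transporter from the same imprinted region, ran the other way, from 7.86 to 8.93 RPKM to 36 to 51.3 RPKM (2.82 ± 0.14), and decorin, Dcn, rose by 1.37. RNA-binding proteins of the fetal program were lower in 9 of 10 cases. Lin28b, which blocks the let-7 microRNAs, measured 2.57, 3.11, 2.89 and 3.05 RPKM at E17.5 and 0, 0.0372, 0 and 0.0173 RPKM at 2 weeks, a ratio of 219 (exact 95% counting interval 74.5 to 1063 on 3 reads at 2 weeks), whereas Igf2bp3 fell by only 0.49 ± 0.12.

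Genes of the working hepatocyte rose. Of 381 tested genes in 14 lists 285 were higher (34.9% of all tested genes were), 143 of them at least 4-fold (6.05% of all), and 55 were lower, with a median of 1.54. Their share of the reads went from 24.2% to 27.2% at E17.5 to 41.8% to 47.4% at 2 weeks. For these genes too, a larger share of hepatocytes in the tissue and more RNA per cell cannot be told apart.

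**Figure D4:**
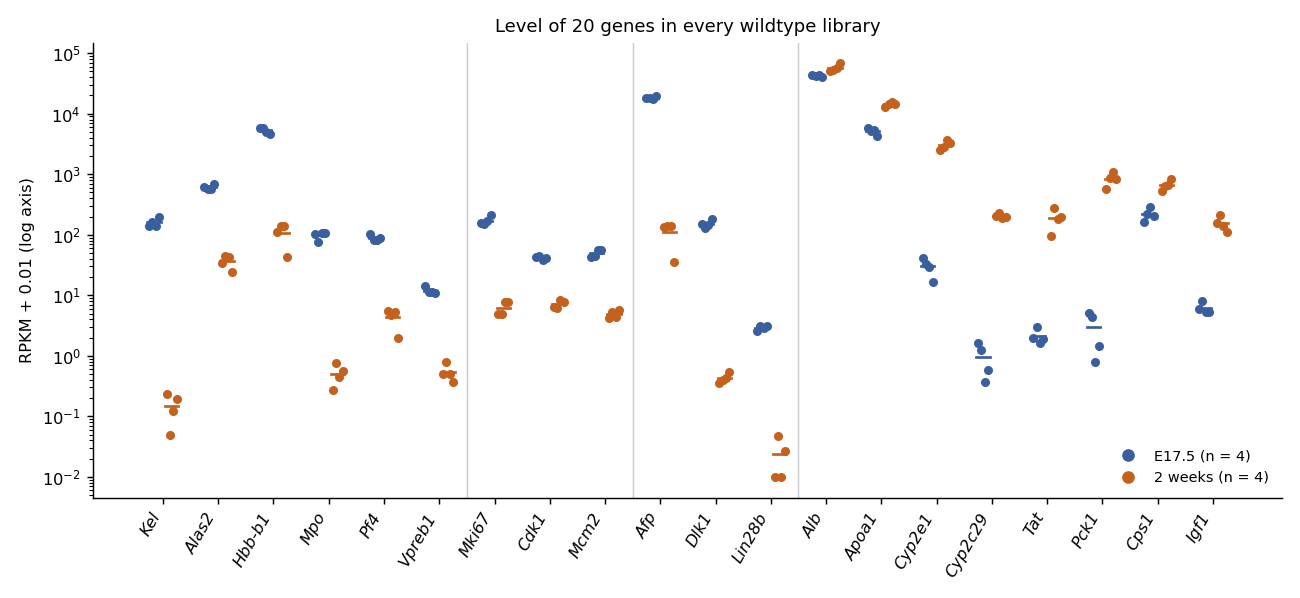
RPKM plus 0.01 (log axis) of 20 genes in each wildtype library, with E17.5 in blue, 2 weeks in orange and the mean of 4 libraries as a line. From left to right stand blood cell, cell division, fetal and hepatocyte genes, and for each gene the stages do not overlap.

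Cytochrome P450 genes led the rise. Of 30 tested genes (34 in the list) 29 were higher, 27 of them at least 4-fold, and none was lower, with a median of 4.05 and a share of reads that went from 0.104% to 0.127% up to 1.27% to 1.40%. Cyp2e1, which oxidises ethanol and acetone, measured 41, 33.2, 29.6 and 16.4 RPKM at E17.5 and 2552, 2820, 3617 and 3255 RPKM at 2 weeks (7.03 ± 0.31, adjusted p = 1.25e-09). Cyp2c29 went from 1.61, 1.23, 0.357 and 0.576 RPKM to 208, 230, 190 and 195 RPKM (8.12 ± 0.29), Cyp1a2 from 0.289 to 1.67 RPKM to 114 to 206 RPKM (7.71 ± 0.37) and Cyp3a11 from 23.2 to 38.6 RPKM to 584 to 1166 RPKM (5.14 ± 0.25). For Cyp2c29 the E17.5 libraries differed among themselves by more than the 2-week libraries did. Cyp3a59, whose relatives have close copies, showed the largest rise of any gene that met the level set for naming (8.80 ± 0.35, from at most 0.139 RPKM to 23.2 to 50.7 RPKM). Cyp2c40 was tested and not called (0.45, adjusted p = 0.321).

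Conjugating enzymes were higher in 34 of 39 cases and lower in none (median 2.20). The glucuronosyltransferase Ugt2b1 rose from 2.15 to 3.06 RPKM to 48.9 to 97.1 RPKM (5.17 ± 0.22) and the sulfotransferase Sult1c2 from at most 0.190 RPKM to 12.5 to 16.2 RPKM (6.94 ± 0.22). Gsta3 and Sult1a1 were already at 292 to 355 RPKM and 97.7 to 113 RPKM before birth and rose by 1.42 ± 0.11 and 1.86 ± 0.10. The hydroxysteroid sulfotransferases Sult2a1 and Sult2a5 were among the 10 largest rises. Sult2a1 went from 5.73, 7.59, 1.07 and 0.549 RPKM to 1134, 1096, 634 and 526 RPKM (8.18 ± 0.60), and Sult2a5 rose by 8.02 ± 0.50. The remaining genes of that set were the organic anion transporter Slc22a7 (8.55 ± 0.32), the deiodinase Dio1, which activates thyroid hormone (8.22 ± 0.34), the methyltransferases Mettl7b (8.14 ± 0.36) and Inmt (8.09 ± 0.49), and Pck1, Cyp2c29 and Slco1a4, which belong to lists.

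Bile acid genes were higher in 24 of 25 cases (median 2.52). The rate-limiting enzyme Cyp7a1 rose least surely, from 7.15 to 15.1 RPKM to 11.4 to 40.5 RPKM (1.29 ± 0.33, adjusted p = 0.00396), with overlapping stages. Transport genes rose by more: the canalicular pump Abcb11 went from 23.7 to 29.5 RPKM to 82.9 to 225 RPKM (2.51 ± 0.28), the sinusoidal carrier Slc10a1 from 60.9 to 84.6 RPKM to 207 to 239 RPKM (1.93 ± 0.13), and Slco1a4 from 0.410, 0.323, 0.0711 and 0.0972 RPKM to 47.4, 52.1, 35.3 and 49.98 RPKM (8.02 ± 0.30).

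All 45 tested genes of the urea cycle and of amino acid breakdown were higher, 25 at least 4-fold (median 2.20). Cps1, which fixes ammonia in the first step of the urea cycle, measured 165, 217, 291 and 207 RPKM at E17.5 and 538, 631, 667 and 821 RPKM at 2 weeks (1.96 ± 0.19, adjusted p = 1.55e-06). Arginase, Arg1, rose by the same amount (1.96 ± 0.18, from 172 to 304 RPKM to 686 to 946 RPKM). Enzymes that commit amino acids to breakdown rose from near nothing. Tat, tyrosine aminotransferase, went from 1.99, 2.94, 1.65 and 1.89 RPKM to 97.1, 277, 182 and 198 RPKM (6.84 ± 0.34), and Tdo2, tryptophan dioxygenase, from 0.942 to 3.20 RPKM to 241 to 403 RPKM (7.64 ± 0.35).

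Glucose genes moved in opposite directions by pathway. Pck1, the first committed step of gluconeogenesis, rose from 5.15, 4.39, 0.767 and 1.43 RPKM to 567, 869, 1102 and 822 RPKM (8.53 ± 0.55, adjusted p = 3.6e-08), and G6pc, which releases free glucose, from 0.541 to 1.86 RPKM to 120 to 268 RPKM (7.38 ± 0.35). Over the gluconeogenesis and glycogen list 13 of 20 genes were higher and 2 were lower, among them the glycogen branching enzyme Gbe1 (-0.82). Glycolysis genes were lower in 18 of 24 cases (median -0.87). Hexokinase 1, Hk1, fell from 40.5 to 54.0 RPKM to 1.5 to 2.08 RPKM (-4.29 ± 0.14), and the muscle-type pyruvate kinase gene Pkm from 68.1 to 85.3 RPKM to 21.4 to 25.7 RPKM (-1.35 ± 0.11), while the liver form Pklr fell by 0.92 ± 0.18.

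Fat oxidation genes were higher in 37 of 39 cases (median 1.62). Cpt1a, which lets fatty acids into mitochondria, measured 16.8, 12.9, 17.4 and 13.4 RPKM at E17.5 and 107, 116, 163 and 138 RPKM at 2 weeks (3.48 ± 0.18), and Cyp4a14, an omega-hydroxylase, went from 0.747 to 1.45 RPKM to 83.2 to 154 RPKM (7.14 ± 0.26). The exceptions were Oxct1 (-1.17), which tissues need to burn ketone bodies, and the thioesterase Acot1 (-1.33 ± 0.21).

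Fat and sterol synthesis behaved otherwise. Of 21 tested fatty acid synthesis genes 11 were higher and 8 lower. Fatty acid synthase, Fasn, fell from 22.8 to 32.1 RPKM to 4.77 to 10.9 RPKM (-1.5 ± 0.19) and the desaturase Scd1 from 54.8 to 76.8 RPKM to 4.99 to 13.2 RPKM (-2.51 ± 0.23). The elongases parted: Elovl6, which extends saturated chains, went from 27.4, 29.1, 30.2 and 23.3 RPKM to 0.722, 0.322, 0.316 and 0.473 RPKM (-5.54 ± 0.21), and Elovl5, which extends polyunsaturated chains, from 18, 17.4, 20.7 and 13.8 RPKM to 234, 205, 227 and 177 RPKM (3.95 ± 0.15). Of 25 cholesterol synthesis genes 21 were lower and 3 higher (median -1.71), with Sqle, squalene epoxidase, at 49.6 to 59.7 RPKM before birth and 0.240 to 1.71 RPKM after (-5.42 ± 0.32). The risers included Sc5d (1.19 ± 0.13) and Ebp (0.81), late steps of the pathway.

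Secreted proteins showed the largest amounts and more modest folds. Albumin, Alb, was at 43220, 41550, 43600 and 40320 RPKM at E17.5 and 51570, 52060, 56520 and 67860 RPKM at 2 weeks (0.80 ± 0.15, adjusted p = 0.00034), so it was already abundant before birth and rose further. In the plasma protein list 29 of 36 tested genes were higher and 2 lower. Both that fell did so steeply. A2m, alpha-2-macroglobulin, went from 399, 310, 415 and 242 RPKM to 0.713, 0.602, 0.743 and 0.580 RPKM (-8.65 ± 0.24), and Hamp, hepcidin, the hormone that blocks iron uptake, from 22.2, 26.6, 54.1 and 12.1 RPKM to 0, 1.97, 0.689 and 2.52 RPKM (-4.09 ± 0.62). The related murinoglobulin Mug1 rose from 0.493 to 0.917 RPKM to 17.8 to 54.8 RPKM (5.78 ± 0.45), with replicate 4 well above the other 2-week libraries. Among serpins Serpina1a rose by 1.40 ± 0.16 and Serpina1e fell by 3.64 ± 0.25, from 821 to 1353 RPKM to 44.3 to 87.6 RPKM, and reads may be shared between these copies.

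Apolipoprotein and lipid export genes were higher in 20 of 23 cases and lower in none (median 1.83), with Apoa1 going from 4320 to 5764 RPKM to 12710 to 15670 RPKM (1.83 ± 0.14), Apoe from 2837 to 3252 RPKM to 12240 to 14850 RPKM (2.55 ± 0.13) and Apoa5 from 1.33 to 4.92 RPKM to 368 to 572 RPKM (7.71 ± 0.37). Coagulation genes were higher in 17 of 23 cases, such as factor VII, F7 (3.03 ± 0.12), and factor IX, F9 (2.32 ± 0.12). The fibrinogen genes were not called, and Fgb stood at 2112 to 3402 RPKM and 2055 to 2737 RPKM (-0.01 ± 0.17, adjusted p = 0.95). With library totals Fgb was called lower (-0.38, adjusted p = 0.0421). Complement genes were higher in 21 of 27 cases, among them C4bp, from 5.23 to 7.11 RPKM to 184 to 218 RPKM (5.42 ± 0.13), and C8b was lower (-1.12 ± 0.11).

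Genes listed as markers of the weaned and adult mouse liver did not move alike. Of 25 such genes 17 could be tested, 13 were higher and 1 lower. The lower one was Serpina1e (-3.64 ± 0.25), which stood at 821 to 1353 RPKM at E17.5. The share of reads on the list was 0.145% to 0.223% at E17.5 and 0.118% to 0.136% at 2 weeks. The genes Cyp4a12a (no read at 2 weeks), Hsd3b5 (0.350 to 0.527 RPKM) and the major urinary protein gene Mup20 (0.312 to 1.06 RPKM), all known to be higher in adult males, had too few reads for the test. Cyp2b9, which adult females hold at a higher level, rose from 4.71 to 6.22 RPKM to 160 to 208 RPKM (5.45 ± 0.14). The sex make-up of the libraries given above moves with the stage, and its part in these values was not tested.

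Promoters of 3 hepatocyte genes that rose are shown in the same way, with capitals for GTTAAT (a motif of liver promoters) in Alb and Serpina1a and for CAAAGTCC (an HNF4 site) in Cyp3a11.
Alb (chr5:90460620-90460869, plus strand): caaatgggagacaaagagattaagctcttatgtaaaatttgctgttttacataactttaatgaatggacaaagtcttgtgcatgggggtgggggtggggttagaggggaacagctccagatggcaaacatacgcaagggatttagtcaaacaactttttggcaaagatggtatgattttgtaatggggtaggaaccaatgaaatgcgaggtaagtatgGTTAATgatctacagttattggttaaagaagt
Serpina1a (chr12:103863620-103863869, minus strand): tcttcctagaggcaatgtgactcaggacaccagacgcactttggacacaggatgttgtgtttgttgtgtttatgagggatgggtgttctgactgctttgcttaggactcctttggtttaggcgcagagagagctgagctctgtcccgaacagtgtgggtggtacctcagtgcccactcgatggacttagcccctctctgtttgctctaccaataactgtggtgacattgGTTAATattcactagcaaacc
Cyp3a11 (chr5:145879855-145880104, minus strand): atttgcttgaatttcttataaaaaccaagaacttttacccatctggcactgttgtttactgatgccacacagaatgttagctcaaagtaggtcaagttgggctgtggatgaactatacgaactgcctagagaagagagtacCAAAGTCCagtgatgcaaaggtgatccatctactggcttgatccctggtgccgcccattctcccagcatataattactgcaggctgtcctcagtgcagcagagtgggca

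GTTAAT was present in 35.3% of 34 promoters of plasma protein genes, against 7.10% of all promoters, and CAAAGTCC in 15.2% of 33 promoters of cytochrome P450 genes, against 1.42%. Other lists that rose held CAAAGTCC rarely, in 0 of 37 urea cycle and amino acid promoters, 0 of 24 coagulation promoters and 2.94% of plasma protein promoters. Cytosolic ribosomal protein promoters, of a list that fell, held it in 5.26%. Among genes called at least 4-fold higher the shares of GTTAAT and CAAAGTCC were 8.26% and 4.26%. They were 5.56% and 1.22% among those at least 4-fold lower and 4.87% and 1.5% among all tested genes. TTGCNNAA was found in 14.1%, 9.72% and 8.98% of the promoters of these 3 sets.

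Growth and regulation genes also rose, with 117 of 167 tested genes higher and 23 lower (median 1.02). In the list of the growth hormone axis 14 of 23 genes were higher and 6 lower. Igf1, the growth factor that liver secretes into blood, measured 5.88, 7.93, 5.25 and 5.36 RPKM at E17.5 and 154, 210, 138 and 112 RPKM at 2 weeks (5.01 ± 0.21, adjusted p = 9.2e-10). Ghr, the growth hormone receptor, went from 24 to 29.8 RPKM to 95.3 to 120 RPKM (2.32 ± 0.12), Igfals from 6.91 to 8.34 RPKM to 61.9 to 90.2 RPKM (3.71 ± 0.15), and the binding protein Igfbp2 from 41 to 50.9 RPKM to 741 to 1454 RPKM (5.03 ± 0.22). The receptor Igf1r fell from 2.91 to 4.05 RPKM to 0.673 to 0.759 RPKM (-1.86 ± 0.12).

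Of 42 tested hepatocyte transcription factors 39 were higher and 3 were lower (median 1.5). Hnf4a, a nuclear receptor that hepatocytes need for much of their gene activity, went from 58.8 to 68.1 RPKM to 99.7 to 158 RPKM (1.36 ± 0.13). Cebpa was called higher (0.46 ± 0.17) with overlapping RPKM values, and lost the call with library totals (0.10, adjusted p = 0.606). Nuclear receptors that respond to bile acids and foreign compounds moved by more. Nr0b2, the repressor SHP, rose from 0.410, 0.760, 0.161 and 0.412 RPKM to 60.8, 52.9, 34.5 and 24.2 RPKM (6.95 ± 0.38), and Nr1i3, the receptor CAR, by 4.46. The lower ones were Onecut1 (-1.21 ± 0.40), Cebpd (-0.40) and Thra (-0.57). For Onecut1 the stages overlapped in RPKM, and the call was lost with DESeq2 (adjusted p = 0.051) and without 2-week replicate 1 (-1.08, adjusted p = 0.0525) or replicate 3 (-0.99, adjusted p = 0.0574).

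Zonated genes, which mark the portal or the central end of the lobule, were higher in 23 of 24 cases (median 2.71) whatever their end. Glul, glutamine synthetase of the last cells before the central vein, went from 95.5 to 111 RPKM to 261 to 339 RPKM (1.88 ± 0.12), and Sds, a serine dehydratase of the portal zone, from 3.77 to 5.01 RPKM to 72.3 to 144 RPKM (5.10 ± 0.25). Clock genes were higher in 12 of 17 cases, with the clock output factor Dbp at 0.501 to 0.720 RPKM and 5.42 to 10.3 RPKM (3.82 ± 0.28), the core factor Arntl not called (0.13 ± 0.13) and Per2 lower (-0.66 ± 0.17), and the hour of sampling is not given in the sources used here. Stress and iron response genes were split, 13 higher and 6 lower of 24, and Mt1, a metal-binding protein, fell from 887 to 1401 RPKM to 102, 115, 524 and 92.6 RPKM (-1.99 ± 0.50), with 2-week replicate 3 apart from the others.

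Acute-phase genes were higher in 10 of 17 and lower in 4. Saa1 had a read in only 1 E17.5 library (0.150 RPKM) and stood at 5.87 to 7.40 RPKM at 2 weeks, a ratio of 175 (exact 95% counting interval 31 to 6949), and Serpina3n went from 16.9 to 26.7 RPKM to 296 to 444 RPKM (4.34 ± 0.21). Lcn2, which neutrophils share, fell by 3.44 ± 0.16. Of 30 interferon-stimulated genes 14 were higher, 4 lower and 12 not called. Rsad2 fell from 68.5, 97.0, 39.5 and 16.3 RPKM to 2.88, 1.84, 2.88 and 1.68 RPKM (-4.21 ± 0.47), and Bst2 rose by 2.29 ± 0.14.

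Other liver cells changed less, with 61 of 114 tested genes higher and 24 lower (median 0.54). Kupffer cell and macrophage genes were split, 9 higher and 11 lower of 30, near the shares over all tested genes (34.9% higher and 37.0% lower). The Kupffer cell lectin Clec4f (1.54 ± 0.16) and the complement receptor Vsig4 rose, the latter from 5.73 to 8.63 RPKM to 26.4 to 46.0 RPKM (2.87 ± 0.19). Cx3cr1, a receptor of monocytes and early macrophages, fell from 2.50 to 3.17 RPKM to 0.125 to 0.280 RPKM (-3.31 ± 0.22), the macrophage marker Emr1 fell by 0.49 ± 0.10 and Cd5l was not called (-0.02 ± 0.18). Endothelial genes were higher in 21 of 33 cases and lower in 5, but in 13 with library totals. Clec4g, a lectin of sinusoidal cells, went from 10.4 to 18.6 RPKM to 49.1 to 76.0 RPKM (2.56 ± 0.18), and Lyve1, the hyaluronan receptor, from 27.3 to 29.6 RPKM to 10.6 to 12.5 RPKM (-0.99 ± 0.10). Stab2 (0.63 ± 0.14) and Pecam1 (0.42 ± 0.12) overlapped in RPKM and were not called with library totals.

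Among 40 tested stellate cell and matrix genes 27 were higher and 5 lower. Lrat, which stores vitamin A, rose from 2.97 to 3.29 RPKM to 8.75 to 12.6 RPKM (2.07 ± 0.11) and dermatopontin, Dpt, by 2.72 ± 0.33. Collagen I, Col1a1, fell by 0.82 ± 0.18 and smooth muscle actin, Acta2, by 1.18 ± 0.26. Bile duct genes were few and mixed, 6 higher and 4 lower of 14, with Krt23 up by 4.10 ± 0.36, the duct factor Sox9 called higher and Krt19 not called (-0.38 ± 0.33, adjusted p = 0.325).

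The energy and protein machinery split by compartment. Respiratory chain genes were higher in 31 of 33 cases (median 0.90, none at least 4-fold), such as Ndufa1 (1.44 ± 0.11) and Cox5a, from 112 to 141 RPKM to 256 to 333 RPKM (1.53 ± 0.11). The gene that fell was Cox6b2, from 23.1 to 31.9 RPKM to 1.56 to 4.76 RPKM (-2.81 ± 0.25). Cytosolic ribosomal protein genes were lower in 37 of 43 cases and higher in none (median -0.63), with Rplp0 going from 827 to 942 RPKM to 263 to 419 RPKM (-0.98 ± 0.13). Peroxisome and antioxidant genes were higher in 21 of 27 cases, among them catalase, Cat (1.56 ± 0.13), and Gulo, the last enzyme of vitamin C synthesis, from 17.6 to 22.9 RPKM to 267 to 336 RPKM (4.27 ± 0.13). Prdx2, an abundant red cell enzyme, fell by 2.58 ± 0.11.

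Endoplasmic reticulum genes moved least of the lists of this size, with 20 of 29 not called and a median of 0.05. The chaperone Hspa5 stood at 407 to 456 RPKM and 328, 376, 148 and 328 RPKM (-0.22 ± 0.22, adjusted p = 0.376). With library totals 12 of these genes were called lower against 2 with TMM. Asns, asparagine synthetase, was the largest fall (-3.78 ± 0.13) and Chac1 the largest rise (4.23 ± 0.49), and Chac1 was at 7.67 RPKM in replicate 3 and 2.29 to 3.02 RPKM in the other 2-week libraries. Genes often used as references for such comparisons were not steady either, with 12 of 18 lower and 4 higher (median -0.36). Over all tested genes 37.0% were lower and 34.9% higher, 71.9% in either direction. Actb fell by 0.55 ± 0.14 and Gapdh by 0.40 ± 0.10.

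The 10 largest falls held genes of several kinds. Besides the Y-linked Ddx3y and Eif2s3y and the red cell genes Kel and Trim58, they were the amino acid transporter Slc36a2, from 38.6, 35.4, 37.1 and 39.6 RPKM to 1 read in 1 library (0.0386 RPKM), the apolipoprotein L gene Apol8, the noncoding RNA Redrum, the glutathione enzyme Ggt1, from 32.1 to 41.7 RPKM to at most 0.0997 RPKM, and 6030468B19Rik, with 33.4 to 46.7 RPKM before and no read after, at least 142-fold lower. For Slc36a2, Apol8, Redrum, Trim58 and Ggt1 the size of the fall rests on 1 to 3 reads over the 2-week libraries, so ratios by library totals are given with exact 95% intervals that cover counting error only. E17.5 over 2 weeks was 3818 (684.8 to 1.508e+05) for Slc36a2, 2667 (478.3 to 1.054e+05) for Apol8, 2548 (457 to 1.007e+05) for Redrum, 1485 (266.1 to 5.87e+04) for Trim58 and 1022 (349.3 to 4957) for Ggt1. Pdia2, a disulfide isomerase abundant in pancreas, was at 11.2, 40.6, 12.7 and 11.6 RPKM at E17.5, highest in the replicate that held pancreas transcripts, and had 1 read over the 2-week libraries. Its ratio was 1354 (242.6 to 5.351e+04), and its fitted log2 fold change of -9.53 became -8.86 without that replicate.

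The same stage difference could be read in the Stab1-/- livers, whose libraries are separate from the wildtype ones. Their labels name no sex or batch either, so this reading does not part the stage from sex make-up or batch. In these livers 4791 genes (35.7%) were higher and 4945 (36.8%) lower of 13433 tested, 72.5% in all. Of 9524 genes called in wildtype and tested in both genotypes, 8030 (84.3%) were called with the same sign, 44 with the opposite sign, and of the 1925 called at least 4-fold 1902 (98.8%) were called with the same sign. Across 13225 genes, which are not independent replicates, the log2 fold changes of the genotypes correlated with Pearson's r of 0.947. Erythroid genes were lower in 35 of 35 cases in Stab1-/- livers too (median -7.71), mitosis genes in 32 of 32 and cytochrome P450 genes higher in 30 of 32.

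The size of the change differed between genotypes for 251 of 13885 genes (1.81%) in a test of the difference itself, with the wildtype fold change the more positive for 140 (1.01%) and the more negative for 111 (0.799%). DESeq2 called more, 599 and 429. The 5 list genes with the smallest p were Igf2, H19, Serpina3n, Cyp2b9 and Col5a1. Igf2 fell by 0.95 in wildtype and by 4.20 in Stab1-/- livers (adjusted p of the difference 1.27e-06), the log2 fold change of H19 was -0.27 and -2.19 (adjusted p = 0.000343), and Serpina3n rose by 4.34 and 1.62 (adjusted p = 2.77e-05). Cyp2b9 rose by 5.45 and 4.29 (adjusted p = 0.015). Col5a1 was 0.08 ± 0.12 in wildtype, which library totals turned to -0.29, and -1.23 in Stab1-/- livers (adjusted p = 0.0163). Afp fell further in Stab1-/- livers, by 9.35 (adjusted p = 0.0187). The E17.5 Stab1-/- libraries differed widely among themselves in some genes. Apoa4 was at 54.8 ± 93.4 RPKM there (SD, n = 3) and at 1.75 ± 1.21 RPKM in the E17.5 wildtype libraries (SD, n = 4). The paper lists intestinal genes such as Alpi and Fabp2 among those raised in the E17.5 Stab1-/- livers. Whether transcripts of another tissue, or the sex make-up of the libraries, enter the differences between genotypes was not tested.

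**Figure D5:**
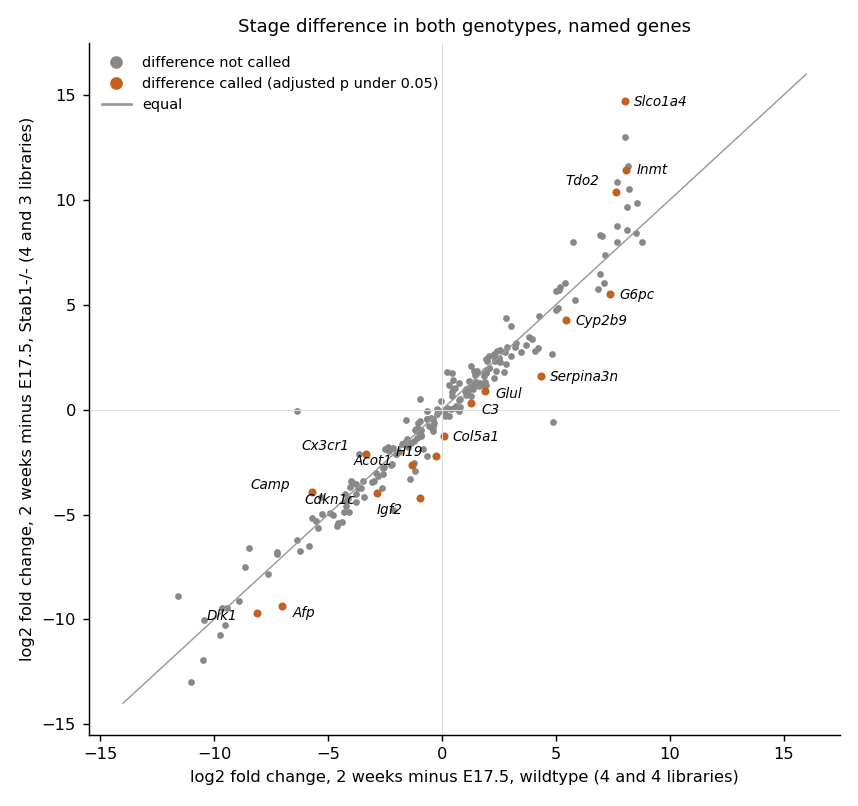
Log2 fold change (2 weeks minus E17.5) in wildtype (horizontal axis) and Stab1-/- livers (vertical axis) for the named genes, each point 1 gene, with genes whose difference was called in orange and the line of equality in grey. Most points lie near the line, and Igf2 (-0.95 and -4.20), H19 (-0.27 and -2.19) and Serpina3n (4.34 and 1.62) are away from it.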

How the data were processed

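Total RNA of dissected livers was sequenced on an Illumina platform at BGI, per the labels. In 1 table the authors deposited, for each library, uniquely mapped read counts per gene, a coverage percent and RPKM (reads per kilobase of gene, scaled to the library total). The deposited RPKM values were those recomputed from the counts, within 7.67e-12 percent. The authors' deposited coverage values in percent were not tested. Aligner, counter, genome build and use of strand are not given in the sources used here, so overlapping and antisense genes may share reads. The table held 19464 rows, and 113 gene IDs stood on more than 1 row.

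Counts of the 8 wildtype libraries were filtered (edgeR 4.0.16, R 4.3.3, minimum count 10, minimum total 15), scaled by TMM and fitted with edgeR's quasi-likelihood test, with Benjamini-Hochberg adjustment over 13369 genes and a threshold of 0.05. The difference between genotypes was a stage by genotype term over all 15 libraries. The fits were tested on simulated data. A gene without reads in a stage was given a lower bound from 3 reads per library, and one with 1 to 3 reads in a stage a ratio with an exact 95% counting interval. Library measures were compared by an exact permutation test over 70 assignments. Alternatives were DESeq2 1.42.0, limma 3.58.1 on log2(RPKM + 0.1) and log2(RPKM + 1), other scalings and filters, GC content, the replicate number as a block, and leaving out each library. Of 1209 list symbols in 52 lists 1204 were matched. The members and lists were chosen with earlier results of these data known. Genes were named by a rule: the first 3 of each list, the called member with the largest rise and fall in each list, the 10 largest rises and falls with a mean of at least 10 RPKM in the higher stage and no overlap, the 10 highest per stage, and the 5 list genes with the smallest p of the difference between genotypes. P-values measure the spread between these libraries, which no label ties to separate litters. Some genes that this rule names are not reported here.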

Additional observations from a re-analysis of the deposited data

Results flagged for a closer look

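In 352 groups of 4 libraries (176 genes at 2 stages) Dixon's test set 1 library apart in 34. For continuous normal values chance alone flags about 1 in 20, or 17.6. Where the other libraries of a group had no read, any read set a library apart. This held for Cd3e, Saa1, Phlda2, Slc36a2, Apol8, Redrum, Trim58 and, at 2 weeks, Pdia2. The 2 counts therefore cannot be compared as a measure of excess. Among blood and division genes at E17.5 these were Mpo at 76.4 RPKM and Cpa3 at 2.43 in replicate 2, Pcna at 285 in replicate 3, Ccnb1 at 81.4 and Cdc25b at 172 in replicate 4, and Cd3e at 0.0651 in replicate 4. Also at E17.5 stood Cyp3a16 at 65.2 RPKM and Saa1 at 0.15 and Cyp4a12a at 0.301 in replicate 3, Slc22a18 at 8.93, C8b at 123 and Sds at 3.77 in replicate 4, Vsig4 at 8.63 and Acta1 at 28.9 in replicate 1, and Cela2a at 494 and Pdia2 at 40.6 in replicate 2.

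At 2 weeks replicate 4 was set apart for Afp at 35.8 RPKM, Phlda2 at 0.254, Mug1 at 54.8, Prdx2 at 104, Slc36a2 at 0.0386 and Apoa2 at 8505. Replicate 2 was set apart for Gfi1 at 0.211 RPKM, Onecut1 at 7.85, Mettl7b at 383, Redrum at 0.0453, Trim58 at 0.046 and Pdia2 at 0.0586. Replicate 1 was set apart for Abcb11 at 225 RPKM, Sds at 72.3 and Apol8 at 0.052, and replicate 3 for Dbp at 10.3, Mt1 at 524 and Chac1 at 7.67. Values under 0.1 RPKM at 2 weeks rest on few reads, and so do Phlda2 at 2 weeks and Cd3e and Saa1 at E17.5.

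The stage effect differed between wildtype and Stab1-/- livers, by the test of the difference, for 16 of the genes described. The wildtype log2 fold change minus that of Stab1-/- livers was 3.23 for Igf2, 2.32 for Afp, 1.90 for H19, 1.55 for Dlk1 and 1.08 for Cdkn1c, genes of fetal growth that fell by less, or for H19 were not called, in wildtype. It was 2.69 for Serpina3n, 1.82 for G6pc, 1.29 for Acot1, 1.28 for Col5a1, 1.14 for Cyp2b9 and 0.95 for Glul. It was -1.80 for Camp, -1.23 for Cx3cr1, -2.75 for Tdo2 and -3.35 for Inmt. For Slco1a4 the fitted difference was -6.76, but this gene had no read in the E17.5 Stab1-/- libraries, so the size depends on the fit.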

How the results depend on the processing

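Most calls kept their direction and side of the threshold. Over all alternatives the named genes gave 4227 values on the same side as reported, 71 that lost the call, 30 that gained it and 3 that reversed. The count of genes higher at 2 weeks moved with the scaling, from 4667 to 3104 with library totals, 3093 with limma on log2(RPKM + 0.1) and 3105 on log2(RPKM + 1), where the median over all genes shifted by -0.36, -0.36 and -0.34. In the limma fits 534 and 355 genes were at least 4-fold higher, against 809. Col5a1 reversed to -0.29, -0.28 and -0.26 in these 3 settings. DESeq2 called 599 positive and 429 negative differences between genotypes, against 140 and 111, and the cause was not tested. Leaving out 1 library gave 4473 to 4759 genes higher and 4744 to 4863 lower. It also gave -980.6 to -860.6 for the difference in genes with a read, 3.039 to 4.495 percentage points for the share of the 10 top genes, and -250.1 to -221.4 for the genes that make up 50% of reads, and 4 against 3 libraries cannot pass the threshold. Whether replicate numbers pair the libraries was not tested, and no label says that they do. Correlations of same-numbered libraries were 0.0025 to 0.191, with a mean of 0.1002, and the mean of other pairs was -0.03319. Of the libraries of 2 weeks 2 of 4 correlated best with their own number. These few values cannot decide the question. The libraries were treated as unpaired, and the fit with a replicate block called 4748 higher and 5025 lower.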
